A study of Homo sapiens with 8 samples.

Results

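The levels of 10 autophagy genes were followed after DNA damage in MCF10A cells, an established non-tumorigenic line of human mammary epithelial cells, with p53 (p53+/+) and without it (p53-/-). The genes were DRAM1, ULK1, ULK2, ATG4A, ATG4C, WIPI1, SQSTM1, MAP1LC3B, GABARAPL1 and BECN1, named as a list and matched by transcript accession, a rule that uses no measured level, so that 10 of the 20292 genes with a named probe were taken. Cells of each genotype were harvested untreated (0 h) or 12, 24 and 48 h past a treatment with adriamycin (ADR or doxorubicin), a drug that breaks DNA, given for 2 h at 0.5 µg/ml by the sample labels and at a higher dose by the study's methods. RNA was hybridised to single-colour arrays, 1 array per genotype and time and 8 in all, so no value has a replicate error. How the p53-/- derivative was made, and whether it is 1 clone, is not given in the sources used here.

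Autophagy is the process by which a cell encloses part of its own cytoplasm in a double membrane, the autophagosome, and delivers it to the lysosome for breakdown. The kinases ULK1 and ULK2 start it, a lipid kinase complex built around BECN1 (Beclin 1) marks the growing membrane with phosphatidylinositol 3-phosphate, and WIPI1 binds that lipid. The protease ATG4 trims the small proteins MAP1LC3B (LC3B) and GABARAPL1 so that they can be joined to the membrane, where SQSTM1 (p62) ties cargo to them. DRAM1 is a lysosomal membrane protein known as a p53 target that promotes autophagy. RNA levels alone do not measure autophagic flux, since several of these proteins are themselves consumed in the lysosome.

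Levels are log2 processed signals minus the log2 75th percentile of the same array, and every difference below is a difference between such log2 levels unless stated otherwise. A level describes 1 gene's probe across arrays and is not compared between genes. All 10 probes were well above background on 8 of 8 arrays. The technical SD of a log2 change, from spots of the same probe on an array, was 0.07 to 0.13 for 9 genes and 0.24 for the dim ATG4C. It does not cover differences between cultures or arrays. Changes in RNA per cell and changes in the mix of cells cannot be told apart in such samples.

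The 75th percentile of signal was 661 to 1015 on the p53+/+ arrays and 879 to 1199 on the p53-/- arrays, and it was lower in treated p53+/+ than in treated p53-/- cells at each time. Means over the 3 treated times of the 10 genes that lose their direction without this scaling are named as such. Values at single times are named in part. All arrays lay on 1 slide with the genotypes in separate columns, which means that genotype and position cannot be told apart, and the p53+/+ 48 h array had 0 of 10 spike-in transcripts above background against 6 on the others. CDKN1A (p21), a p53 target, read -1.14, 2.54, 2.63 and 2.70 (0, 12, 24 and 48 h) on the p53+/+ arrays against -2.97, -0.96, -0.64 and -0.48 on the p53-/- arrays. MDM2, another p53 target, read -1.66 to 1.76 in p53+/+ cells, with its lowest level at 0 h, and -2.04 to -1.33 in p53-/- cells. Of the probes that separate treated p53+/+ from all p53-/- arrays by at least 4-fold, 67 spanned at most 0.7 log2 units within each of these sets. On these 67 the p53+/+ 0 h array lay at a median position of 0.0214, where 0 is the p53-/- level and 1 the treated p53+/+ level. Since these probes were picked on treated p53+/+ and all p53-/- arrays, they may include genes that move only after ADR. The position therefore does not check the label of the p53+/+ 0 h array. Each genotype has a single 0 h array, so the changes of the 10 genes in p53+/+ cells are also given from the p53-/- 0 h array. The summed level of 11 markers of other cells (fibroblasts, leukocytes and endothelium) was 5.83 to 6.20 on a log2 scale on the p53-/- arrays, 5.85 on the p53+/+ 0 h array and 2.64 to 3.11 on the treated p53+/+ arrays, with 7 to 9, 6 and 3 to 4 of them above background. Most of this sum was DCN (decorin), which with PTPRC and CD14 was above background on 8 arrays. COL1A1, LUM (lumican) and PECAM1 were above background on 5 arrays, VWF on 4, PDGFRB on 3, CD3E on 1 and COL1A2 and COL3A1 on 0. LUM, a fibroblast gene like DCN, was at -1.32 on the p53+/+ 0 h array, at -6.61 to -6.33 on the treated p53+/+ arrays and at -2.64 to -1.11 on the p53-/- arrays. Not all these markers fell with LUM. On the p53+/+ 0 h array CD14 was at 1.51, PTPRC at -3.74 and VWF at -4.90. On the treated p53+/+ arrays they were at 0.78 to 1.67, -4.21 to -3.68 and -4.84 to -3.87. The 7 epithelial markers had a summed level of 7.0 to 7.49 on the p53-/- arrays, 7.71 on the p53+/+ 0 h array and 8.42 to 8.94 on the treated p53+/+ arrays. On each array 6 or 7 of them were above background. The epithelial cadherin gene CDH1 was at -3.13 on the p53+/+ 0 h array and at 1.42 to 2.10 on the treated p53+/+ arrays. TP63, above background on 3 arrays, was at -5.67 and at -6.15 to -4.06 there. ITGB4 was at 3.87 and at 4.45 to 6.17 there, and at 5.06 on the p53-/- 0 h array. The part of these differences in the results below was not tested.

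ATG4A and DRAM1 were higher, and ATG4C was lower, in ADR-treated p53+/+ than in ADR-treated p53-/- cells. The log2 difference over the 3 treated times was 1.17 for ATG4A (standard error 0.18, adjusted p = 0.00929 from limma), 0.99 for DRAM1 (0.23, adjusted p = 0.0293) and -0.93 for ATG4C (0.21, adjusted p = 0.0284). Among the 15807 genes tested, 11.6% were called higher and 9.33% lower in this comparison, against 2 and 1 of the 10 autophagy genes, so neither count says anything particular to the list. The 3 treated times stand in for replicates in this fit, so its p-values set the genotype difference against the movement over time and not against differences between cultures. None of the 10 genes was at least 2-fold higher or lower at all 3 times, a rule that 6.76% and 5.92% of all genes passed in the respective directions. Without the 12 h arrays or the 24 h arrays 0 of the 10 genes were called, and without the 48 h arrays only ATG4A was. With time point as a block only ATG4A was called (adjusted p = 0.0310).

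**Figure D1:**
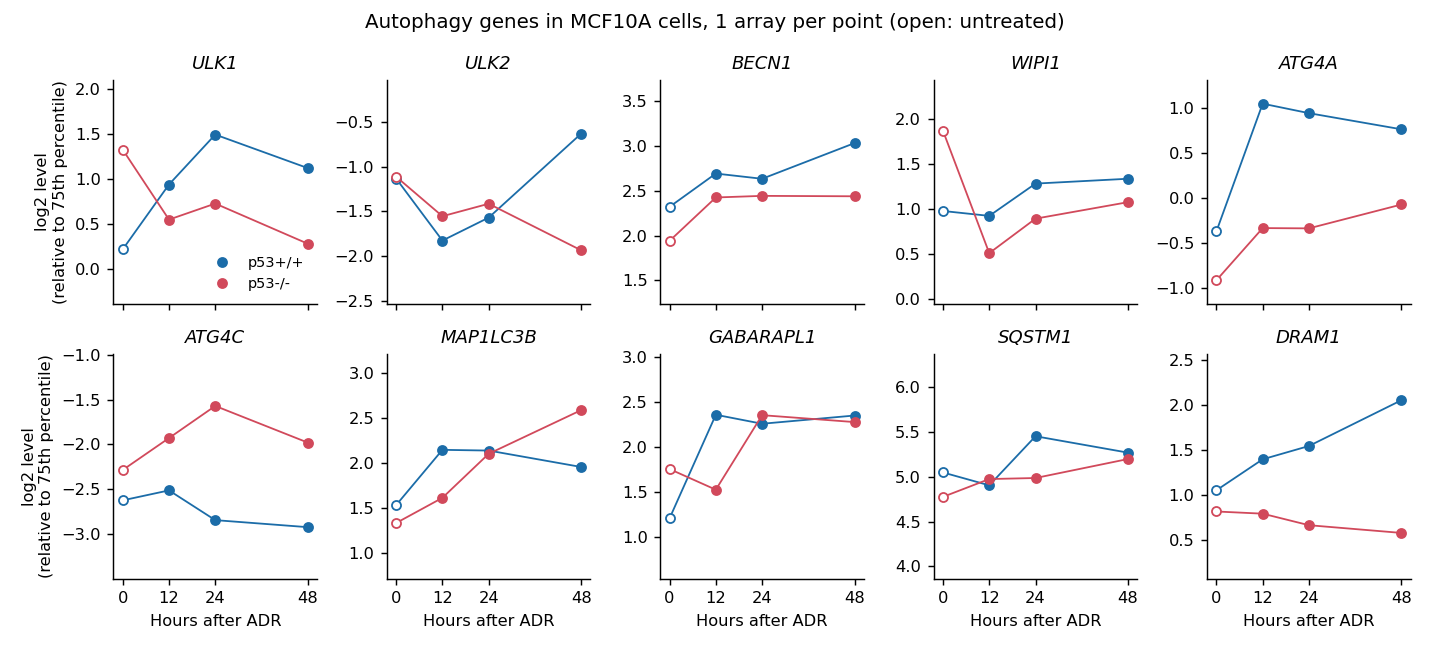
Log2 level (relative to the 75th percentile of the array) of the 10 genes against hours after ADR, 1 array per point, with p53+/+ cells in blue, p53-/- cells in red and the untreated arrays as open points; every panel spans 2.5 log2 units. The ATG4A line of treated p53+/+ cells runs from 1.05 to 0.76 above -0.34 to -0.07 in p53-/- cells, the DRAM1 lines separate from 12 to 48 h, and the ULK1 and WIPI1 lines of p53-/- cells start above those of p53+/+ cells at 0 h and lie below them after ADR.

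ATG4A and DRAM1 were called higher in p53+/+ cells in the comparison above, and GABARAPL1 passed the 2-fold rule in those cells. The treated levels of ULK1 lay on opposite sides of the 0 h array in the 2 genotypes. For these reasons the upstream sequences of these 4 genes are shown. Each is the 250 bases before the RefSeq start of the gene (GRCh38.p14, plus strand), 5′ to 3′, with matches to the searched motifs in capitals. They are chrX:108091528-108091777 for ATG4A, chr12:101877330-101877579 for DRAM1, chr12:10212627-10212876 for GABARAPL1 and chr12:131894372-131894621 for ULK1.
ATG4A: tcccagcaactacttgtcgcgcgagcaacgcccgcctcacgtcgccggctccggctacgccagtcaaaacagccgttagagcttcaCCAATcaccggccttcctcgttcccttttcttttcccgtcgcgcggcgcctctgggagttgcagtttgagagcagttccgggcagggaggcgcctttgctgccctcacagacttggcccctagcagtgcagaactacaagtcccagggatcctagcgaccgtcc
DRAM1: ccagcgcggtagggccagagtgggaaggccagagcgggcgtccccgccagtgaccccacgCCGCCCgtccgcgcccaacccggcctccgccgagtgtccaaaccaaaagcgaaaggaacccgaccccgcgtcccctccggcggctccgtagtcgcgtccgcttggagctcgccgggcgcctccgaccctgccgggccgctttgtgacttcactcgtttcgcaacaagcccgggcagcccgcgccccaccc
GABARAPL1: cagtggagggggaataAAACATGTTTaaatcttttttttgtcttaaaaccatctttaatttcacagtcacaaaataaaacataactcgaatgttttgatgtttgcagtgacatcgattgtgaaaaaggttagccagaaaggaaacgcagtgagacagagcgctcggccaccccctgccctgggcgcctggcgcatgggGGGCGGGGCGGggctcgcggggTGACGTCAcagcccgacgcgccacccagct
ULK1: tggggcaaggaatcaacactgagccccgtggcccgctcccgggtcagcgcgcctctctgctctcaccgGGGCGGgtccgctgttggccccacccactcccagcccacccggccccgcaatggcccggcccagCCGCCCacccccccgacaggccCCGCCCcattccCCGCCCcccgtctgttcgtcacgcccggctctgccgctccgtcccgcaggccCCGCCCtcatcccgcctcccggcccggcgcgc

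Both strands were searched for the p53 half-site, for 2 such half-sites at most 13 bases apart (a p53 full site), for CACGTG (letters bound by TFEB and its relatives) and the longer CLEAR element that holds it, TGACGTCA (CREB and ATF), TGANTCA (AP-1), TGTTTAC (FOXO), GGGCGG (SP1) and CCAAT. In the window of GABARAPL1 the capitals mark 1 p53 half-site at -234 to -225 from the start, 2 overlapping GGGCGG matches from -52 to -42 and 1 TGACGTCA at -30 to -23. The window of ATG4A held only CCAAT, at -164 to -160. That of ATG4C, called lower in p53+/+ cells and not shown, held only CCAAT, at -187 to -183 and at -90 to -86. DRAM1 had 1 match, to GGGCGG on the other strand at -190 to -185. ULK1 had 5 matches to GGGCGG. Of 35116 upstream windows of this length, 5.57% held a p53 half-site, 0.0256% a full site, 1.65% TGACGTCA, 42.6% GGGCGG and 32.0% CCAAT. The motif CACGTG was in 6.34%, the CLEAR element in 0.308%, TGANTCA in 6.57% and TGTTTAC in 2.98% of the windows, and none of these 4 motifs nor a full p53 site was in any window of the 10 genes. A match is a description of letters, and a site outside this window was not searched for.

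In the initiating kinases, the p53+/+ arrays had an ULK1 level of 0.21 at 0 h, 0.94 at 12 h, 1.49 at 24 h and 1.12 at 48 h. The p53-/- arrays had 1.32, 0.54, 0.72 and 0.28. The treated arrays of p53+/+ cells lay above those of p53-/- cells without overlap, while the untreated arrays stood in the opposite order. The log2 changes from 0 h were 0.72, 1.28 and 0.90 in p53+/+ and -0.78, -0.60 and -1.05 in p53-/- cells. The difference between the genotypes in this response was 1.78 (standard error 0.45), which missed the threshold (adjusted p = 0.117 from limma), and 1.88% of all genes passed it. With normexp background correction it was 1.68 and passed (adjusted p = 0.0451 from limma). From the p53-/- 0 h array the p53+/+ changes were -0.39, 0.17 and -0.21, so the direction in p53+/+ cells rested on the p53+/+ 0 h array. Compared directly, treated p53+/+ cells were 0.39, 0.77 and 0.84 higher at 12, 24 and 48 h (limma 0.67, standard error 0.23, adjusted p = 0.0909), and this difference passed with normexp (0.61, adjusted p = 0.0372) and over probes above background on all 8 arrays (0.67, adjusted p = 0.0489). Without scaling these differences were -0.06, 0.28 and -0.02, so their direction depended on the scaling.

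ULK2 is a kinase closely related to ULK1. Its p53+/+ level was -1.13, -1.82, -1.57 and -0.63 at 0, 12, 24 and 48 h, beside a p53-/- level of -1.11, -1.55, -1.41 and -1.93. The genotypes were close until 24 h, with differences of -0.27 and -0.15 at 12 and 24 h, and apart at 48 h, where p53+/+ cells were 1.30 higher (2.46-fold), or 0.44 without scaling. Over the 3 times the difference was 0.29 (standard error 0.34, adjusted p = 0.603 from limma). A dimmer ULK2 probe gave differences of 0.73, -0.51 and 0.78, with which the brighter probe shared its sign at 24 and 48 h, and the third was above background on 0 arrays.

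BECN1, the scaffold of the lipid kinase complex, had levels of 2.32, 2.69, 2.63 and 3.03 at 0, 12, 24 and 48 h with p53 and of 1.94, 2.42, 2.44 and 2.44 without it. All 6 treated arrays lay above both untreated arrays, at changes of 0.37, 0.31 and 0.71 in p53+/+ and 0.48, 0.50 and 0.50 in p53-/- cells. The mean changes of 0.46 and 0.49 (standard error 0.26 each) were both short of the threshold (adjusted p = 0.355 and 0.586 from limma), and the difference between them was -0.03, with a 95% interval from -0.92 to 0.86. BECN1 thus had changes of 1 sign in both genotypes, of which that in p53+/+ cells shrank to 0.06, -0.003 and 0.09 without scaling.

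WIPI1, which reads the lipid mark made by that complex, was at 0.98, 0.92, 1.28 and 1.33 in p53+/+ cells at 0, 12, 24 and 48 h. On the p53-/- arrays it was at 1.87 before treatment and at 0.51, 0.89 and 1.07 after it. The untreated p53-/- array was the highest of the 8, and the changes from it were -1.36, -0.98 and -0.79, at percentiles 2.65, 5.64 and 11.5 of all genes. Their mean of -1.05 (standard error 0.32) did not pass the adjusted threshold (adjusted p = 0.377 from limma), and neither did the difference between the genotypes of 1.25 (0.46, adjusted p = 0.234). In p53+/+ cells the changes were -0.05, 0.30 and 0.36, and from the p53-/- 0 h array -0.95, -0.59 and -0.53. Directly compared, treated p53+/+ cells were 0.41, 0.39 and 0.26 higher, and -0.04, -0.09 and -0.60 without scaling.

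ATG4A encodes an ATG4 protease with a preference for the GABARAP branch of the ATG8 proteins. In p53+/+ cells its level was -0.37 at 0 h, 1.05 at 12 h, 0.94 at 24 h and 0.76 at 48 h, so that the treated arrays were 2.68-, 2.49- and 2.20-fold higher than the first. The p53-/- levels were -0.92, -0.34, -0.34 and -0.07, with log2 changes of 0.58, 0.58 and 0.84. The treated arrays of both genotypes were above their own untreated array, and the groups of treated arrays did not overlap. ATG4A rose in p53+/+ cells by a mean of 1.29 (standard error 0.26, adjusted p = 0.0354 from limma), where 8.37% of all genes were called, and by 1.84 from the p53-/- 0 h array (adjusted p = 0.0113). It lost this call without the 12, 24 or 48 h arrays (adjusted p = 0.0997, 0.232 and 0.0566 from limma). The call was also lost with median scaling (adjusted p = 0.0516) and without scaling. The mean change in p53-/- cells was 0.67 (standard error 0.26, adjusted p = 0.476 from limma). The difference between the 2 responses was 0.62, with a 95% interval from -0.26 to 1.51, and it became -0.18 without scaling. Treated p53+/+ cells were 1.39, 1.28 and 0.84 higher than treated p53-/- cells at the same time, and 0.93, 0.80 and -0.02 without scaling. The direct difference lost its call without scaling (0.57, adjusted p = 0.0991), without the 12 h arrays (adjusted p = 0.0717) and without the 24 h arrays (adjusted p = 0.167).

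ATG4C, another ATG4 protease, differed the other way. At 0, 12, 24 and 48 h its p53+/+ level was -2.62, -2.51, -2.84 and -2.92, and its p53-/- level was -2.29, -1.93, -1.57 and -1.98. On this probe the p53+/+ array was the lower one at every time, 0 h included, by 0.58, 1.27 and 0.94 after ADR. The changes from 0 h were small in both genotypes, 0.11, -0.22 and -0.30 in p53+/+ and 0.36, 0.71 and 0.30 in p53-/- cells, near the technical SD of 0.24 for the first set. The difference after ADR kept its direction with every scaling and was -1.53 without any. A second probe gave differences of -0.26, -0.88 and -0.37 after ADR. At 0 h it had the opposite order, with -2.48 in p53+/+ and -2.66 in p53-/- cells. With the mean of both probes the call was lost (-0.72, adjusted p = 0.0620 from limma). It was also lost with time point as a block (adjusted p = 0.0541) and with each treated time left out in turn (adjusted p = 0.0732, 0.262 and 0.0977 without 12, 24 and 48 h).

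**Figure D2:**
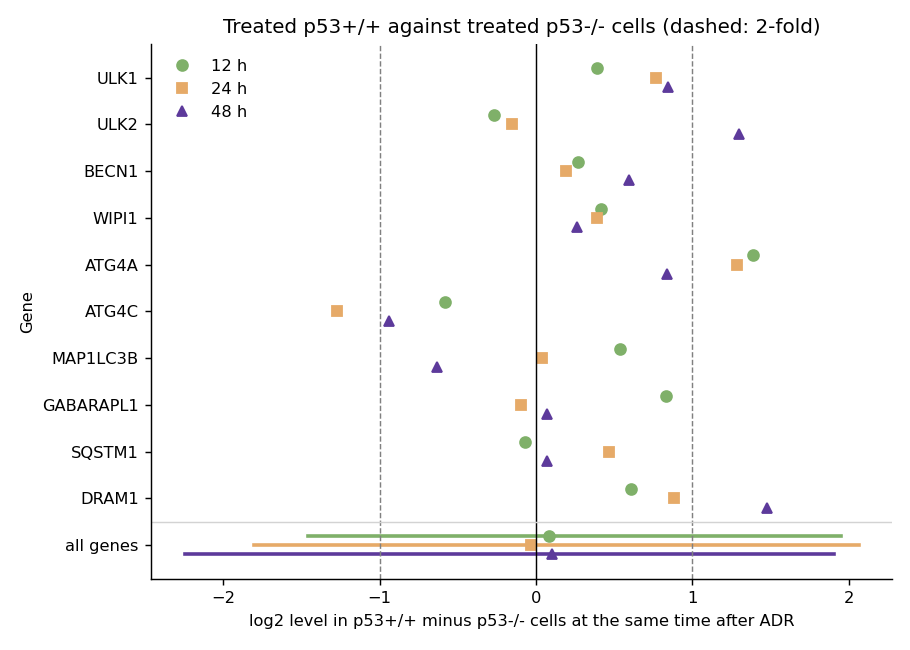
Log2 level in treated p53+/+ minus treated p53-/- cells at 12 h (circles), 24 h (squares) and 48 h (triangles) for the 10 genes, with the median and the 5th to 95th percentile of all 15807 genes in the bottom row and dashed lines at 2-fold. ATG4A lies at 1.39, 1.28 and 0.84, DRAM1 at 0.61, 0.88 and 1.48 and ATG4C at -0.58, -1.27 and -0.94, and all 30 points lie within the 5th to 95th percentile of all genes at their time.

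Among the ATG8 proteins that are joined to the autophagosome membrane, MAP1LC3B was at 1.53, 2.15, 2.14 and 1.95 in p53+/+ cells and at 1.33, 1.61, 2.10 and 2.59 in p53-/- cells at 0, 12, 24 and 48 h. Its p53+/+ level stayed between 1.95 and 2.15 after ADR, whereas the p53-/- level was higher at each later time and 2.39-fold above its untreated array at 48 h. On the brighter probe the order of the genotypes turned over the time course, with p53+/+ minus p53-/- differences of 0.53, 0.04 and -0.63. Without scaling these differences were 0.08, -0.45 and -1.49. The mean changes were 0.55 in p53+/+ and 0.77 in p53-/- cells (standard error 0.39 each, adjusted p = 0.459 and 0.569 from limma). A dimmer probe for MAP1LC3B gave p53-/- changes of 0.49, 0.71 and 1.35, near the 0.28, 0.77 and 1.26 of the brighter one, but p53+/+ changes of 0.02, -0.02 and -0.34 in place of 0.62, 0.61 and 0.42. The size and, at 24 and 48 h, the sign of the p53+/+ change thus differed between the probes. The p53+/+ minus p53-/- differences on the dimmer probe were -0.13, -0.39 and -1.35, so the order did not turn on it.

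GABARAPL1, which belongs to the GABARAP branch of the same family, read 1.20 at 0 h, 2.36 at 12 h, 2.26 at 24 h and 2.35 at 48 h in p53+/+ cells. The p53-/- levels were 1.75, 1.52, 2.35 and 2.28. The p53+/+ change was already 2.23-fold at 12 h and was 2.08- and 2.21-fold at 24 and 48 h, while in p53-/- cells the level at 12 h lay below that at 0 h and the later ones 1.52- and 1.44-fold above it. With this scaling the treated genotypes overlapped from 24 h, with differences of 0.83, -0.10 and 0.07 at 12, 24 and 48 h. Without scaling the differences were 0.38, -0.58 and -0.79, and the p53-/- change at 12 h was 0.12. GABARAPL1 and ATG4A were the 2 of 10 genes that rose at least 2-fold at all 3 times in p53+/+ cells, and 9.53% of all genes did. From the p53-/- 0 h array the GABARAPL1 changes were 0.60, 0.50 and 0.60, below 2-fold, and without scaling they were 0.84, 0.74 and 0.53. The limma estimate of 1.12 (standard error 0.37) had an adjusted p of 0.136. A dimmer probe gave p53+/+ changes of 0.92, 0.76 and 0.35, and p53+/+ minus p53-/- differences of 0.62, -0.20 and -0.61.

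**Figure D3:**
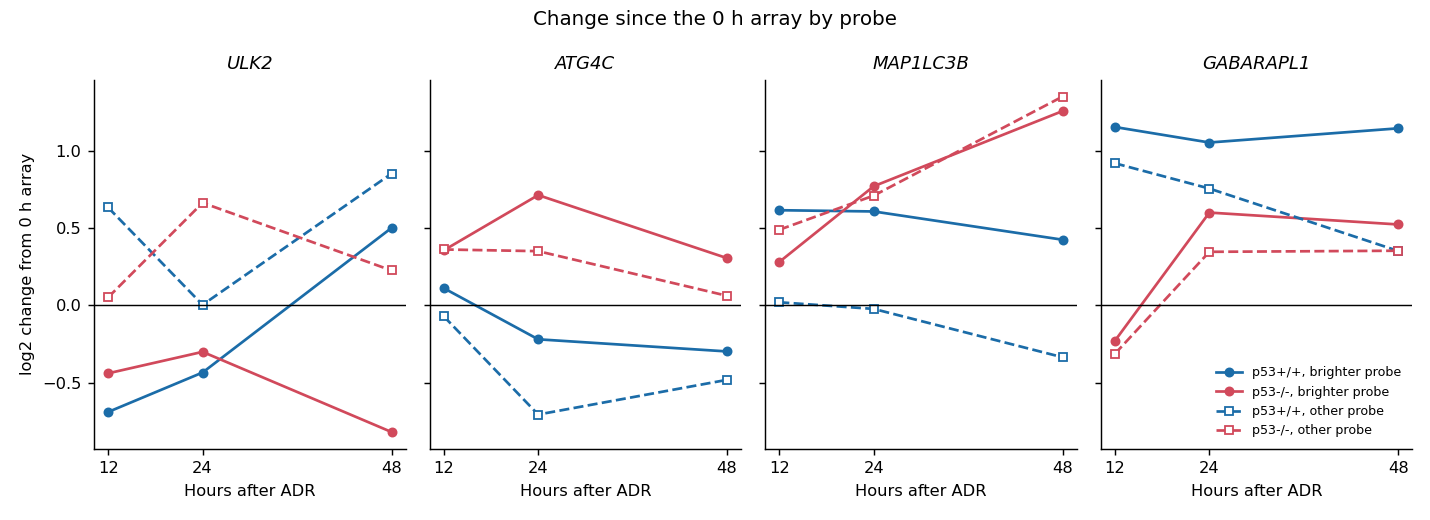
Log2 change from the 0 h array of the same genotype at 12, 24 and 48 h for the 4 genes with more than 1 probe above background, with the brighter probe as filled circles on solid lines and the other as open squares on dashed lines, p53+/+ in blue and p53-/- in red. The MAP1LC3B probes run together in p53-/- cells and apart in p53+/+ cells, where they reach 0.42 and -0.34 at 48 h, and the GABARAPL1 probes reach 1.15 and 0.35 there.

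SQSTM1, the cargo receptor p62, was at 5.05, 4.90, 5.45 and 5.27 in p53+/+ cells and at 4.78, 4.97, 4.99 and 5.20 in p53-/- cells at 0, 12, 24 and 48 h. The treated arrays of the genotypes overlapped. The mean changes were 0.16 and 0.28 (standard error 0.30 each) and the difference after ADR was 0.16, with a 95% interval from -0.35 to 0.66. These intervals allow changes in either direction. Without scaling the difference after ADR was -0.44.

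DRAM1 was at 1.05, 1.40, 1.54 and 2.05 on the p53+/+ arrays of 0, 12, 24 and 48 h. On the p53-/- arrays it was at 0.81, 0.79, 0.66 and 0.58. The 4 arrays of p53+/+ cells all lay above the 4 of p53-/- cells, and the gap was wider at each later time, with 0.61, 0.88 and 1.48, or 1.52-, 1.84- and 2.79-fold. Without scaling it was 0.15, 0.40 and 0.62. The change in p53+/+ cells reached 2.00-fold only at 48 h (1.27-fold at 12 h and 1.41-fold at 24 h), and its mean of 0.61 (standard error 0.32) had an adjusted p of 0.317 from limma. From the p53-/- 0 h array it was 0.58, 0.73 and 1.24. In p53-/- cells the changes were -0.02, -0.15 and -0.24, and positive without scaling. The difference between the responses, 0.75, was short of the threshold (standard error 0.45, adjusted p = 0.455 from limma). The difference after ADR lost its call with median scaling (0.85, adjusted p = 0.0576), without scaling (0.39, adjusted p = 0.130), with time point as a block (adjusted p = 0.0602) and with each treated time left out (adjusted p = 0.0733, 0.220 and 0.101 without 12, 24 and 48 h).

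The genes whose levels followed DRAM1 most closely over the 8 arrays, of 15806 compared, were ARF5 (Pearson r = 0.993), WNT3A (0.992), TNFRSF6B (0.990), KAZN (0.989) and PALS1 (0.989). The points share the scaling and the ranking picks the top of many genes, so these are descriptions. KAZN was at -5.27 on the p53+/+ 0 h array and at -6.49 to -5.59 on the p53-/- arrays. It was not above background on any of these, so its correlation rests in part on values near the floor. TNFRSF6B, a soluble decoy receptor, spanned the widest range of them, from 0.63 to 3.15 in p53+/+ cells and from -0.43 to 0.24 in p53-/- cells.

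Over the 10 genes, 7, 8 and 9 had a p53+/+ change above 0 at 12, 24 and 48 h, with medians of 0.36, 0.45 and 0.61 against 0.06, -0.04 and 0.16 for all genes. From the p53-/- 0 h array the mean p53+/+ changes were -0.23 for ULK2, 0.84 for BECN1, -0.47 for ATG4C, 0.75 for MAP1LC3B and 0.43 for SQSTM1, with the signs they had from the p53+/+ 0 h array. For the p53-/- genotype 5, 6 and 6 of the 10 had a change above 0, with medians of 0.09, 0.36 and 0.36 against -0.02, 0.01 and 0.07. The share of all genes above 0 was not counted, so these counts say nothing particular to the list. Without scaling some signs turned, to below 0 in p53+/+ cells and to above 0 in p53-/- cells. At 48 h the p53+/+ changes were then -0.12 for ULK2, -0.26 for WIPI1, -0.19 for MAP1LC3B and -0.40 for SQSTM1. The p53-/- changes of DRAM1 were then 0.32, 0.22 and 0.21. None of the 10 fell at least 2-fold at all 3 times in p53+/+ cells (6.39% of all genes), and 0 rose and 0 fell so in p53-/- cells (3.21% and 2.04%). In the limma fit 0 of 10 were called for the response of p53-/- cells, in which 0.0253% of all genes were, and 0 for the difference between the responses. At an unadjusted p under 0.05 these counts were 3 and 2, where 11.2% and 19.2% of all genes passed. The 3 were ULK1, WIPI1 and ATG4A, of which the first pair lay below and ATG4A above the 0 h array.

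A wider list of 88 autophagy and lysosome genes outside the 10 had 87 with a probe and 86 above background on at least 1 array. In treated p53+/+ against treated p53-/- cells 12 of the 86 were called higher and 3 lower, beside 11.6% and 9.33% of all genes, with a median difference of 0.25 against 0.05 for all genes. Without scaling 3 were called higher and 17 lower, so the split of directions rested on the scaling, and with a treated time left out 0 to 3 were higher and 1 lower. For the response of p53+/+ cells 5 were called higher and 1 lower, beside 8.37% of all genes in either direction (median 0.35 against 0.06), and from the p53-/- 0 h array 1 and 1. In p53-/- cells 0 were called, and for the difference between the responses 1 in each direction.

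Of the 15 genes called after ADR, 7 belonged to the group of nutrient sensing by AMPK and mTORC1, which holds 15 of the 86. Among all genes 11.6% were called higher and 9.33% lower. The group was singled out after the calls were seen, and whether it holds more calls than other genes was not tested. The AMPK subunits PRKAB1, PRKAB2, PRKAG1 and PRKAG2 and the mTORC1 inhibitor DDIT4 (REDD1) were higher in treated p53+/+ cells. A catalytic subunit of AMPK, PRKAA2, and RHEB, the activator of mTORC1, were lower. The other catalytic subunit, PRKAA1, was not called (-0.25, adjusted p = 0.544 from limma). Neither were MTOR, RPTOR, MLST8, AKT1S1, DEPTOR, TSC1 and TSC2 of the same group, with differences from -0.36 to 0.24. STX17 and VAMP8, membrane fusion proteins that join autophagosome and lysosome, were both higher. SNAP29, another fusion protein, was at -0.74 and not called (adjusted p = 0.0682 from limma). LAMP1 and TPP1 of the lysosome, GABARAPL2 of the ATG8 proteins and RUBCN (Rubicon) of the lipid kinase complexes were also higher. So was ZFYVE1 (DFCP1), which marks the sites where the membrane forms. Without scaling the 48 h differences of PRKAB1, PRKAG1 and GABARAPL2 were -0.07, -0.29 and -0.03. ATG16L1, part of the conjugation machinery in which ATG4A and ATG4C work, was lower. The 3 tested genes of the ULK1 complex and the 9 cargo receptors had 0 called.

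ZFYVE1 went from -0.58 at 0 h to 1.08, 1.41 and 1.40 on the p53+/+ arrays, against 0.42, -0.29, 0.33 and 0.36 on the p53-/- arrays. With p53 it was 1.16 higher after ADR (standard error 0.24, adjusted p = 0.0221 from limma). VAMP8 was at 4.79, 6.12, 6.74 and 7.22 in p53+/+ and at 4.98, 4.71, 4.54 and 4.87 in p53-/- cells, and the 3 treated p53+/+ arrays stood above all the others. Its difference after ADR was 1.99 (standard error 0.30, adjusted p = 0.00811). PRKAB1 rose in p53+/+ cells by 1.38, 1.84 and 1.46 at 12, 24 and 48 h, against changes of 0.54, 0.30 and 0.83 in p53-/- cells. After the 24 h arrays were left out, the differences after ADR of ZFYVE1, VAMP8, PRKAB1 and DDIT4 did not pass (adjusted p = 0.191, 0.148, 0.203 and 0.166 from limma).

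DDIT4 moved in opposite directions from the 0 h arrays. Its changes were 1.28, 1.45 and 1.27 with p53 and -1.89, -1.36 and -1.58 without it, and the difference between the responses was 2.94 (standard error 0.41, adjusted p = 0.0287 from limma). It did not pass with a treated time left out (adjusted p = 0.0861, 0.250 and 0.0843 without 12, 24 and 48 h). From the p53-/- 0 h array the mean change in p53+/+ cells was -0.60, so the direction there, as for ULK1, turned with the baseline. Both DDIT4 and ULK1 read lower on the p53+/+ 0 h array than on the p53-/- 0 h array. PRKAA2 was dim, with -4.08 on the p53+/+ 0 h array and -4.03 to -4.37 on the p53-/- arrays. On the treated p53+/+ arrays it was not well above background, which makes treated p53-/- cells at least 1.23-fold higher (adjusted p = 0.000665 from limma, where the fitted size depends on values near the floor).

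**Figure D4:**
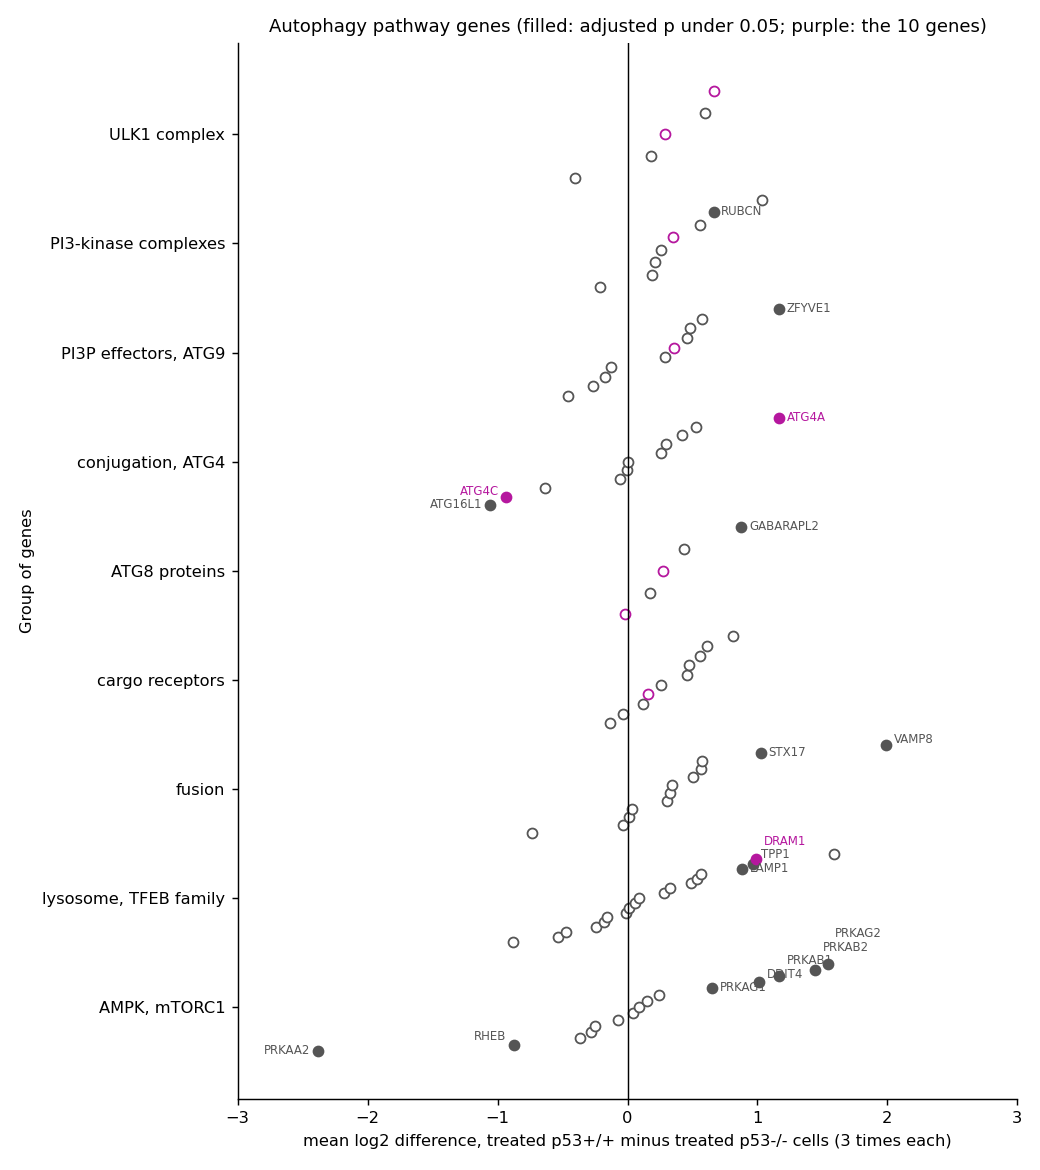
Mean log2 difference between treated p53+/+ and treated p53-/- cells over the 3 times for autophagy pathway genes by group, each point 1 gene, with filled points at an adjusted p under 0.05 (limma) and the 10 genes in purple. Called genes lie on both sides of 0, with VAMP8 at 1.99, ATG4A at 1.17 and DRAM1 at 0.99 on the right and ATG4C at -0.93 on the left, and PRKAA2 on the far left was not well above background in treated p53+/+ cells.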

How the data were processed

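The authors deposited the scanner output of 8 Agilent SurePrint G3 Human GE arrays. The value used was its processed signal, a linear intensity after the background correction of Feature Extraction 10.7.3.1. A deposited table over all arrays repeated these intensities (503808 of 503808 equal). The design build is hg19, and no normalization between these arrays is given in the sources used here. Columns of other series numbered 0.

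Control spots and 233 to 370 flagged spots per array were left out, and log2 signal minus the log2 75th percentile was averaged per probe. Probes were named by accession through RefSeq (GRCh38.p14), which matched 27223 of 42391 probes (64.2%), and the probe with the highest mean stood for a gene. Between 49.8 and 62.9% of probes were well above background per array, and no spot was saturated. With 1 array per genotype and time the number of arrays limits the precision.

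limma 3.58.1 (R 4.3.3; lmFit, eBayes) was fitted to the 28947 probes above background on at least 1 array, as 4 means of genotype and treatment with 4 residual degrees of freedom, all from the treated arrays, and the single 0 h arrays were assumed to vary like these. Benjamini-Hochberg adjustment ran over all 28947 probes, with 0.05 as the threshold, and shares of all genes are over the 15807 genes tested. A rise or fall by size needed 2-fold at all 3 times. Alternatives were quantile, median and no scaling, normexp (offset 50), the mean of a gene's probes, other filters on dim probes, time as a block, each treated time left out, 1.5- and 3-fold rules, at least 2 of 3 times, and the p53-/- 0 h array as baseline. Named genes were the 10 genes, up to 2 genes per pathway group and direction past a 2-fold rule, the 5 genes most correlated with DRAM1, and CDKN1A and MDM2 as a check. One further gene of this rule is not reported here. The other pathway genes, called or not, and the markers described were named after their values were seen. The members and lists were chosen with earlier results of these data known. A gene of the groups was matched through an older symbol where needed. Tables were handled in Python 3.11.15 (pandas 2.3.3, numpy 2.4.6, scipy 1.17.1) and drawn with matplotlib 3.10.9.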

Additional observations from a re-analysis of the deposited data

Results flagged for a closer look

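ULK1 was above the p53+/+ 0 h array at all 3 times and below the p53-/- 0 h array at all 3 times, and the difference between these responses was 1.78 on the log2 scale (standard error 0.45, adjusted p = 0.117 from limma). DRAM1 showed the same pattern of signs, with a difference of 0.75 (adjusted p = 0.455 from limma). Its p53-/- changes were only -0.02, -0.15 and -0.24, beside a technical SD of 0.11, and were above 0 without scaling. Among the other pathway genes named above, VAMP8 had 2.17 (adjusted p = 0.138 from limma) and ZFYVE1 2.17 (adjusted p = 0.0884 from limma), again with every treated p53+/+ array above and every treated p53-/- array below its untreated array. The p53-/- changes of ZFYVE1 at 24 and 48 h were only -0.09 and -0.07. Without scaling the mean p53-/- responses of VAMP8 and ZFYVE1 were above 0. DDIT4 had a difference of 2.94 with opposite signs and passed the threshold (adjusted p = 0.0287 from limma). PRKAA2 passed it as well, with -2.33 (adjusted p = 0.0289 from limma), while its arrays lay below the untreated one in both genotypes. It was not well above background on the treated p53+/+ arrays, so the size of this value is not measured, and those arrays only bound the fall from 0 h in p53+/+ cells as at least 1.47-fold. Each of these values rests on both single 0 h arrays.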

How the results depend on the processing

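Over 420 recalculations of the 40 limma values of the 10 genes, 373 kept direction and side of the threshold, 25 turned, 19 fell below the threshold and 3 passed it. The median difference of all genes between treated genotypes was -0.03 to 0.10 with the 75th percentile and -0.76 to -0.37 without scaling. That shift is in the unscaled values, and the cause of the other moves was not tested. The 2 genes that rose at least 2-fold in p53+/+ cells became 0 with median scaling, without scaling and by a 3-fold rule, and 1 with normexp, the mean of probes or the p53-/- 0 h baseline. By a 1.5-fold rule 2 genes fell in p53-/- cells (ULK1, WIPI1) and 2 were higher in treated p53+/+ cells (ATG4A, DRAM1). At least 2 of 3 times gave 1 higher (ATG4A), and no scaling 1 lower (ATG4C). The 3 calls after ADR became 4 with normexp and over probes above background on all 8 arrays (ULK1 added), 2 with median scaling and with the mean of probes, 1 without scaling (ATG4C), 1 with time as a block (ATG4A) and 0 to 1 with a treated time left out. The 1 call for the p53+/+ response became 0 with median scaling, without scaling and with any treated time left out. The 0 calls for the difference in response became 1 with normexp (ULK1).

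Values that turned were as follows. Without scaling the difference after ADR was -0.31 for ULK2, -0.25 for BECN1, -0.24 for WIPI1, -0.33 for GABARAPL1 and -0.44 for SQSTM1, which had -0.053 with quantile normalization. The p53+/+ response was -0.21 for WIPI1 and -0.25 for SQSTM1, the p53-/- response 0.25 for DRAM1, 0.10 for ZFYVE1, 0.12 for VAMP8 and 0.080 for PRKAA2, and the difference in response -0.49 for ULK2, -0.18 for ATG4A and -0.052 for DRAM1. Normexp turned the p53+/+ response of ULK2 (0.0041) and ATG4C (0.014), and the mean of probes that of ULK2 (0.14). From the p53-/- 0 h array the p53+/+ response was -0.14 for ULK1, -0.69 for WIPI1 and -0.60 for DDIT4. With a treated time left out the difference after ADR ranged from -0.21 to 0.57 for ULK2, -0.30 to 0.29 for MAP1LC3B and -0.011 to 0.45 for GABARAPL1, the p53+/+ response of ULK2 from -0.56 to 0.033, and the difference in response from -0.19 to 0.59 for ULK2, -0.15 to 0.051 for BECN1 and -0.50 to 0.086 for MAP1LC3B. Replicate numbers pair no samples, since each group has 1 array; pairing the genotypes by time is the fit with time as a block. The table of the whole series was not run apart, since it equals the scanner values. Normexp used the median spot signal.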
